A study of Mus musculus with 28 samples.

Results

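Dorsal hippocampus of male C57Bl6 mice was compared between a group that underwent auditory fear conditioning and was treated with Cort (n = 5 libraries) and a Basal group with neither conditioning nor treatment (n = 4 libraries). Cort stands for corticosterone, the glucocorticoid stress hormone of mice, and auditory fear conditioning pairs a tone with a shock. These 9 of the 28 libraries of the series were taken by their labels, and all 16735 genes with enough counts were described. The Cort and Basal groups differ in training, in handling and in hormone at once, so the comparison gives the sum of these and the design does not separate them. Vehicle (n = 4) and RU486 (n = 5, mifepristone, which blocks glucocorticoid and progesterone receptors) mice were also conditioned and serve below as further references for the Cort libraries. Conditioned mice treated with C108 or C118, compounds that the labels give only by code (n = 5 libraries each), entered the fit and the centring of levels, and their values are plotted for 12 genes. The sources used here do not give doses or the time between training and dissection. The labels do not say whether each library came from a separate mouse, so p-values measure the spread between these libraries, which may be partly technical.

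Glucocorticoids cross the cell membrane and bind the glucocorticoid receptor (GR, encoded by Nr3c1) and the mineralocorticoid receptor (encoded by Nr3c2), both of which are abundant in hippocampal neurons. The bound receptors enter the nucleus and act on DNA elements near their target genes, many of which encode feedback regulators such as Fkbp5, an Hsp90 co-chaperone that lowers the hormone affinity of GR. Training itself raises endogenous corticosterone and drives activity-dependent genes in neurons, and glia and vessels of the hippocampus carry GR as well.

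Library totals were close, with 19015438 to 20030621 gene counts in Cort libraries and 18527682 to 20055095 in Basal libraries. Levels are given as CPM, counts scaled to a common library total. Marker and pathway levels are means of log2 CPM after each gene was centred on all 28 libraries. Some libraries stood apart within their group on these levels. Cort 4 had the highest heat shock chaperone level (0.637, against -0.132 to 0.101 in the other 4 Cort libraries and -0.166 to 0.032 in Basal libraries). Its choroid plexus level was also the highest of its group (2.66, against -1.34 to 1.62 in the other 4 Cort libraries and -2 to 0.687 in Basal libraries), with Cort 30 next at 1.62. Cort 36 was low in microglial (-0.463), astrocytic (-0.367) and endothelial (-0.621) markers. So were C108 39 (-0.451, -0.549 and -1.002) and C118 38 (-0.523, -0.578 and -0.980). Cort 36, C118 38 and C108 39 carry the highest numbers of the series, and the highest Basal number is 27. Whether these levels follow the numbering was not tested. Basal 9 had the highest level of GR target genes of its group (-0.397, against -0.81 to -0.653 in the other 3 Basal libraries). Markers of neighbouring tissue also moved with the groups, since neocortical markers lay at -0.149 to 0.0538 in Cort libraries and at 0.104 to 0.262 in Basal libraries, without overlap. Thalamic markers ranged from -0.54 to 1.21 in Cort libraries and from -0.325 to 0.331 in Basal libraries. The part of dissection in the results was not tested. Fits given below use the thalamic and neocortical levels as covariates. As the neocortical level separates Cort from Basal libraries, such a fit cannot tell dissection from the difference between the groups, for any gene. A call lost or kept with these covariates therefore does not settle the part of dissection.

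Between Cort and Basal libraries, 1049 genes passed an adjusted p of 0.05 in edgeR's quasi-likelihood test with Benjamini-Hochberg adjustment, which is 6.27% of those tested. Of these, 475 genes (2.84%) were higher and 574 (3.43%) were lower in Cort libraries. Of the 1049 called genes, 430 differed by less than 0.5 on the log2 scale, while 84 rose and 111 fell by more than 1. The median log2 fold change was 0.47 among called rises and -0.66 among called falls, against 0.01 over all tested genes. Called rises had a median level of 30.5 CPM over the 9 libraries, against 12.4 CPM for called falls and 16.9 CPM for all tested genes. Called falls were more often long genes, and 25.8% of them span more than 100 kb, against 13.3% of called rises and 14% of all tested genes. Cort and Basal libraries did not overlap at all for 832 of the called genes, 4.97% of those tested. In each of the 9 fits that left out 1 library, 232 rises (1.39%) and 268 falls (1.6%) were called every time.

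The number of called genes depended on which libraries entered and on the marker covariates. It was 684 without Cort 4 and Cort 36, 616 without Basal 1, 595 without Basal 14, and 587 with the thalamic and neocortical levels as covariates. Most of these were genes of the full fit, since 640 of the 684, 611 of the 616, 591 of the 595 and 506 of the 587 were also called there.

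**Figure D1:**
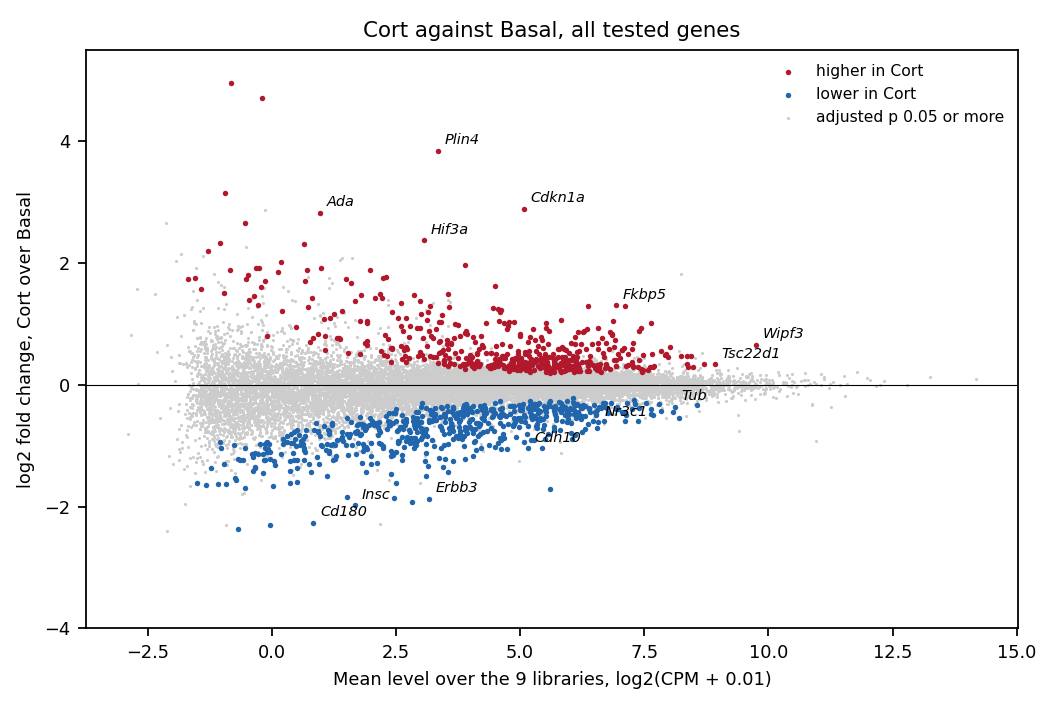
Each point is 1 of 16735 tested genes, by its mean level over the 9 libraries on the x axis (log2 of CPM plus 0.01) and its log2 fold change of Cort over Basal on the y axis. Red points (475) were called higher and blue points (574) called lower in Cort libraries, and the named genes include Plin4 and Cdkn1a at the top and Cd180 and Insc at the bottom.

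Known target genes of GR rose widely. Of 44 target genes, all of them measured, 33 were called higher and 0 lower in Cort libraries, against 2.84% and 3.43% of all tested genes, and 42 of the 44 had a positive fold change. Their median log2 fold change was 0.89, against 0.01 over all tested genes, and Cort and Basal libraries did not overlap for 31 of them, against 1680 (10%) of all tested genes. The list was drawn up with earlier results of these data known, and Xdh and Etnppl entered it in that way, so its count is a description. Several of its called members are also counted in lists described below, so those counts are not separate from this one. They include Plin4, Angptl4 and Pdk4 (lipid), Mt1 and Mt2 (metallothionein), Ddit4 and Sesn1 (mTOR) and Xdh (purine). Cdkn1a and Sesn1 (growth arrest) and Gjb6 and Etnppl (astrocyte) are shared as well. Without Cort 4 and Cort 36, 28 of the 44 were called higher, and 27 were with the thalamic and neocortical covariates.

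Fkbp5 (ENSMUSG00000024222, chr17:28399094-28517527 of mm10) had the smallest adjusted p among all tested genes. Its level was 159, 159, 162, 180 and 175 CPM in Cort libraries, against 61.0, 80.6, 59.9 and 68.4 CPM in Basal libraries. Every Cort library lay above every Basal library, and the log2 fold change was 1.31 ± 0.10 (SE, adjusted p = 1.28e-09, edgeR).

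Plin4 (chr17:56100591-56109803), a perilipin that coats lipid droplets, rose the most among the genes named by size. It was at 22.0, 8.41, 21.5, 18.9 and 15.4 CPM in Cort libraries, against 0.921, 2.14, 1.27 and 0.531 CPM in Basal libraries, a log2 fold change of 3.84 ± 0.36 (adjusted p = 2.29e-07). Cort 11 was the lowest of the Cort libraries and still stood above all Basal libraries. Cdkn1a (chr17:29090976-29100727), which encodes the cell cycle inhibitor p21, was at 80.7, 49.5, 46.8, 55.4 and 41.9 CPM in Cort libraries, against 6.71, 11.7, 5.99 and 5.36 CPM in Basal libraries. Its log2 fold change was 2.89 ± 0.33 (adjusted p = 5.78e-06), with Cort 4 the highest library. Hif3a, an alpha subunit of the hypoxia-inducible factors, averaged 13 ± 2.59 CPM in Cort libraries and 2.52 ± 1.85 CPM in Basal libraries (SD, n = 5 and 4), with Basal 9 at 5.26 CPM well above the other Basal libraries (log2 fold change 2.38 ± 0.30, adjusted p = 9.13e-06).

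Feedback and signalling genes of the hormone pathway followed. Tsc22d3, the gene of the anti-inflammatory factor GILZ, was at 146, 122, 95.5, 115 and 84.1 CPM in Cort libraries, against 39.2, 63.2, 42.1 and 38.1 CPM in Basal libraries (log2 fold change 1.30 ± 0.16, adjusted p = 8.72e-06). Sgk1, a kinase that acts on ion channels and transporters, was at 191, 128, 133, 158 and 148 CPM in Cort libraries, against 55.5, 130, 58.3 and 49.6 CPM in Basal libraries. Basal 9 reached the range of the Cort libraries for Sgk1, and the rise of 1.05 ± 0.23 (adjusted p = 0.00421) was not called when the fit held only the Cort and Basal libraries (adjusted p = 0.0843). Zbtb16, a zinc finger repressor, rose by 0.67 ± 0.10 (82.7 ± 7.6 CPM in Cort libraries and 51.9 ± 6.63 CPM in Basal libraries, adjusted p = 8.9e-05). The Krüppel-like factors Klf15 and Klf9, transcription factors with GR-bound enhancers, rose by 1.02 ± 0.15 and 0.49 ± 0.09 (adjusted p = 4.2e-05 and 0.000954). The negative regulator of ErbB and EGF receptors Errfi1 rose by 0.86 ± 0.12 (adjusted p = 2.19e-05), and Nfkbia, the inhibitor of NF-kappa-B, rose by 0.98 ± 0.21 (adjusted p = 0.0042).

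Lcn2, a secreted carrier of iron-binding molecules, was near the limit of counting in Basal libraries, at 0, 0, 0 and 0.0965 CPM, and at 0.972, 1.53, 1.29, 0.89 and 0.256 CPM in Cort libraries (adjusted p = 0.000146), so no fold is given for it. The 11 target genes that were not called were Per1, Klf13, Dusp1, Cebpd, Cebpb, Arrdc3, Glul, Bcl6, Fam107a, Tgm2 and Svep1. Per1, a clock gene with a GR element, was at 83.3, 59.2, 49.2, 57.5 and 71 CPM in Cort libraries, against 60.5, 52.9, 53.3 and 51.2 CPM in Basal libraries, so the groups overlapped (log2 fold change 0.23 ± 0.12, adjusted p = 0.269).

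**Figure D2:**
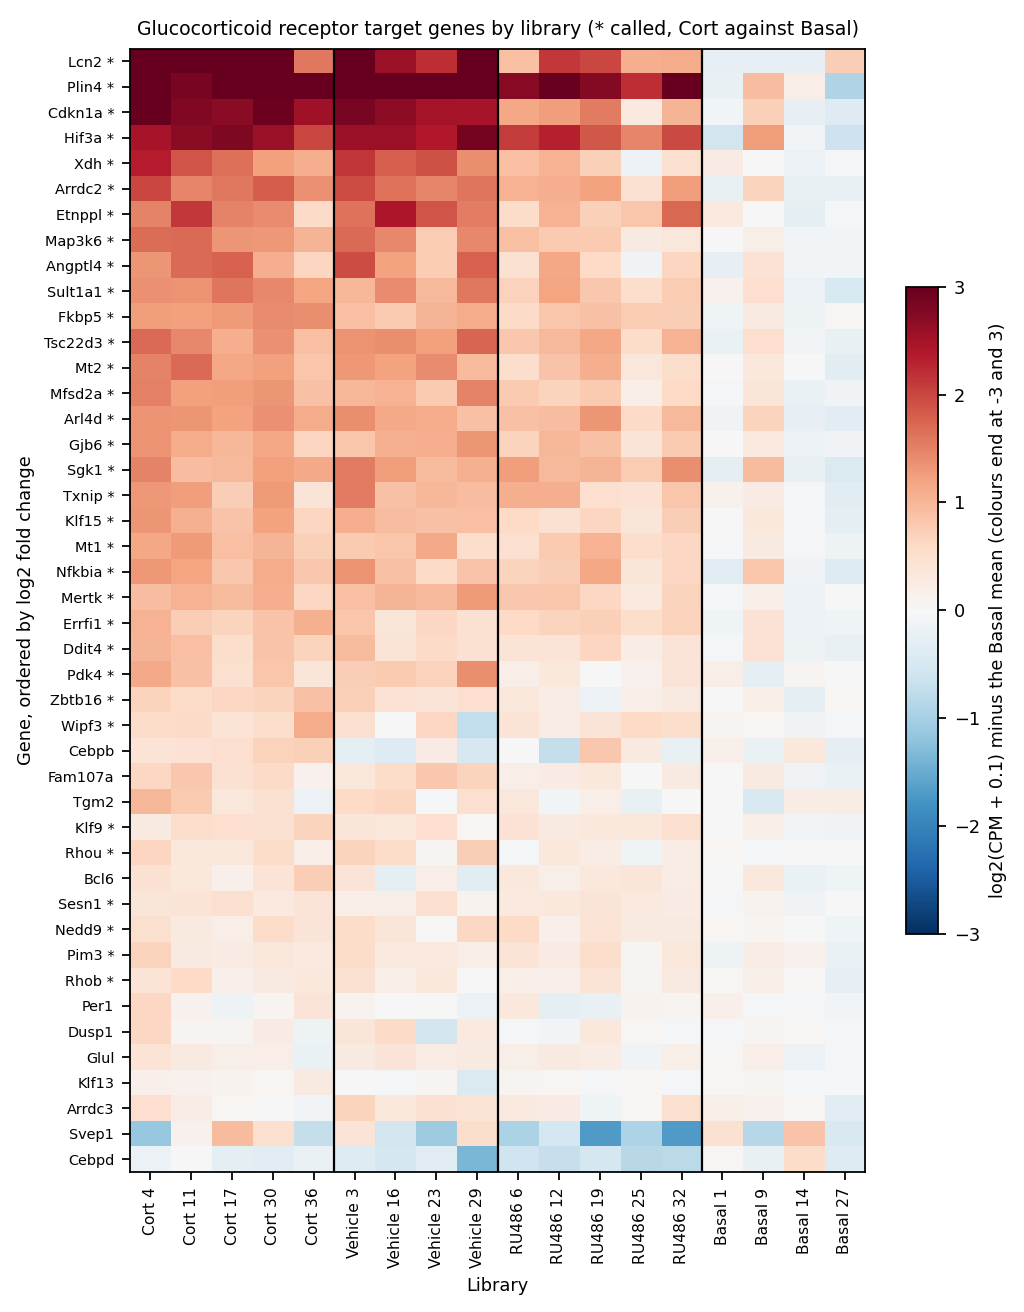
Rows are the 44 GR target genes ordered by log2 fold change, columns are the libraries of the Cort, Vehicle, RU486 and Basal groups, and colours give log2 of CPM plus 0.1 minus the mean of the Basal libraries. The 33 genes with a star were called higher in Cort libraries, Basal 9 is warmer than the other Basal libraries for several of them, and the colours of the Vehicle libraries lie near those of the Cort libraries.

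Promoter sequence was searched for the palindromic GR element, that is GNACA, then any 3 bases, then TGTNC, on both strands from 250 bases before to 50 bases after the start of each gene, for the 11798 tested genes with a RefSeq window. Of 376 called rises with a window, 6 (1.6%) held a match, as did 0 of 411 called falls and 41 (0.348%) of all 11798 genes. The 6 genes were Map3k6, Mt1, Pot1b, Serpina3n, Suox and Txnip, of which Pot1b, Serpina3n and Suox are not in the target list, and Pot1b and Suox were not called in every fit without 1 library. The shorter motif AGAACA, 1 arm of the element, was searched in the same way and may overlap the palindrome. It was in 12% of the windows of called rises, 10.2% of those of called falls and 12.1% of all windows. Windows of 3 of the 6 genes are shown from RefSeq (GRCm38.p6) because they carry the match in genes of different function, with the match in capitals. Map3k6 encodes a stress-activated kinase, Txnip an inhibitor of thioredoxin that restrains glucose uptake, and Serpina3n a serine protease inhibitor of reactive astrocytes. All 3 lie on the forward strand.
Map3k6, chr4:133240568-133240867: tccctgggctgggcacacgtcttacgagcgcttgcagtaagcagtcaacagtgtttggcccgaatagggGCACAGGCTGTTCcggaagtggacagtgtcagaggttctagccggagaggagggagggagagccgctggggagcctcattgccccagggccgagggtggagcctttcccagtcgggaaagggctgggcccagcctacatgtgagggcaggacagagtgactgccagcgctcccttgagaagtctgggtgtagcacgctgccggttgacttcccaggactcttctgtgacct
Txnip, chr3:96557707-96558006: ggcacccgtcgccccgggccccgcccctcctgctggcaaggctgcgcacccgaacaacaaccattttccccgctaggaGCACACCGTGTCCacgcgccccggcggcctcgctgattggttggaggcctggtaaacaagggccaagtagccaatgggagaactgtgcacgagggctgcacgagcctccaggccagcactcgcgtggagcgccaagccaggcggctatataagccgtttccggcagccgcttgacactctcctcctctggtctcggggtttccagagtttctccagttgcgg
Serpina3n, chr12:104406458-104406757: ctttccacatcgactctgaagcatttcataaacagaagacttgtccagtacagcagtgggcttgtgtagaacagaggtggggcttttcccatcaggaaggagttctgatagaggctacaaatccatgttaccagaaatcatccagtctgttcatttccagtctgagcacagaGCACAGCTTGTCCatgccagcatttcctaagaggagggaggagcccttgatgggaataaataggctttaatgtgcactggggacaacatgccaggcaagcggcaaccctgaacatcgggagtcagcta

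The match begins 181 bases before the start in Map3k6, 172 before it in Txnip and 78 before it in Serpina3n. Map3k6 was at 5.78, 5.87, 4.54, 4.45 and 3.63 CPM in Cort libraries, against 1.74, 1.97, 1.62 and 1.64 CPM in Basal libraries (log2 fold change 1.47 ± 0.23, adjusted p = 0.000106). Txnip was at 42.4, 41.4, 28.9, 42.1 and 22.7 CPM in Cort libraries, against 18.9, 20.4, 16.6 and 13.7 CPM in Basal libraries (1.03 ± 0.21, adjusted p = 0.00236). Serpina3n was at 107, 113, 106, 113 and 135 CPM in Cort libraries, against 74.8, 74.2, 64.5 and 71.1 CPM in Basal libraries (0.69 ± 0.14, adjusted p = 0.00236). The groups did not overlap for any of these 3 genes. With the thalamic and neocortical covariates Txnip and Serpina3n passed no longer (adjusted p = 0.0557 and 0.0627). A match is a run of letters and does not show that a receptor is bound there.

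The receptor genes themselves moved less. Nr3c1 was at 83.6, 74.2, 79.5, 72.8 and 75.6 CPM in Cort libraries, against 129, 96.7, 123 and 122 CPM in Basal libraries, and fell by 0.61 on the log2 scale (SE 0.09, adjusted p = 4.68e-05). All Cort libraries lay below all Basal libraries, and Basal 9 was again the Basal library nearest to them. Nr3c2 was at 235, 291, 302, 291 and 381 CPM in Cort libraries, against 369, 384, 356 and 369 CPM in Basal libraries, and was not called (log2 fold change -0.30 ± 0.13, adjusted p = 0.197), although it was with the thalamic and neocortical covariates (adjusted p = 0.0134). Nr3c1 was the single called member among 17 tested genes of steroid receptors and hormone activation (5.88%, against 6.27% of all tested genes).

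Genes of lipid handling rose in part. Of 29 tested genes of lipid droplets and fatty acid use, 5 were called higher and 1 lower (20.7%, against 6.27% of all tested genes), with a median log2 fold change of 0.01. Beside Plin4, the rises were Pnpla2, the triglyceride lipase of lipid droplets (40, 33.4, 28.1, 31.7 and 27.8 CPM in Cort libraries, against 14.9, 16.4, 11.5 and 13.1 CPM in Basal libraries, log2 fold change 1.21 ± 0.15, adjusted p = 5.78e-06), and Dgat2, which makes triglycerides (219 ± 18.3 CPM in Cort libraries and 115 ± 22.3 CPM in Basal libraries, 0.93 ± 0.15, adjusted p = 0.000128). The remaining rises were Angptl4, a secreted inhibitor of lipoprotein lipase, and Pdk4, which turns pyruvate away from oxidation (1.43 ± 0.35 and 0.76 ± 0.19, adjusted p = 0.00964 and 0.00993). These 5 rises were also called without Cort 4 and Cort 36. Plin4, Angptl4 and Pdk4 among them are also in the list of GR targets. Of 24 genes of cholesterol synthesis and uptake, 4 (16.7%) were called lower and 0 higher. Among the falls Insig1, a brake on sterol synthesis, Stard4, a sterol carrier, and Sqle, an enzyme of the pathway, passed narrowly (adjusted p = 0.0439, 0.0444 and 0.0449), and these 3 were not called without Basal 1 or without Basal 14.

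Purine breakdown genes included some of the largest rises. Ada, which deaminates adenosine, was at 2.66, 2.8, 3.2, 3.76 and 3.27 CPM in Cort libraries, against 0.154, 0.877, 0.457 and 0.289 CPM in Basal libraries (log2 fold change 2.82 ± 0.37, adjusted p = 9.81e-06). Xdh, which makes uric acid at the end of the pathway, was at 10.7, 7.78, 6.55, 4.89 and 4.4 CPM in Cort libraries, against 2.41, 2.03, 1.78 and 1.93 CPM in Basal libraries (1.75 ± 0.32, adjusted p = 0.000833). With Nt5e, which makes extracellular adenosine (0.58 ± 0.14, adjusted p = 0.00855), 3 of 16 tested adenosine and purine genes (18.8%) were called higher and 0 lower, against 2.84% and 3.43% of all tested genes.

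Of 19 metallothionein and antioxidant genes, 5 (26.3%) were called higher and 0 lower, against 2.84% and 3.43% of all tested genes, and 2 were called higher with the thalamic and neocortical covariates. Mt1 and Mt2, which bind zinc and copper, averaged 255 ± 37.4 and 187 ± 42.3 CPM in Cort libraries, against 126 ± 17.1 and 76.2 ± 14.3 CPM in Basal libraries. Their log2 fold changes were 1.01 ± 0.16 and 1.29 ± 0.21 (adjusted p = 0.000196 and 0.00022), and the groups did not overlap for either. Hmox1, which degrades haem, rose by 0.61 ± 0.14 (adjusted p = 0.00596), and was not called with these covariates (adjusted p = 0.0758). Of 25 heat shock chaperones 0 were called in either direction by edgeR, with 8 at an unadjusted p under 0.05 and a median log2 fold change of 0.20. DESeq2 called 2 of them higher and limma-voom 0.

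Of 24 genes of mTOR, FoxO and insulin signalling, 6 were called higher and 1 lower (29.2%, against 6.27% of all tested genes), with a median log2 fold change of 0.06. The mTOR brake Ddit4 was at 99.4, 91.2, 70.0, 87.3 and 77.5 CPM in Cort libraries, against 47.4, 65.4, 43.5 and 41.5 CPM in Basal libraries (0.78 ± 0.14, adjusted p = 0.000686). Sesn1, the translation repressor Eif4ebp1 and the transcription factor Foxo3 rose as well, by 0.39 ± 0.08, 0.78 ± 0.17 and 0.33 ± 0.07 (adjusted p = 0.00144, 0.00508 and 0.00427). Ddit4l, a relative of Ddit4, went the other way, at 2.95 ± 0.823 CPM in Cort libraries and 8.13 ± 1.4 CPM in Basal libraries (-1.46 ± 0.33, adjusted p = 0.00596). With the thalamic and neocortical covariates 3 rises and 0 falls of this list were called. Among 18 genes of NF-kappa-B inflammation 4 were called higher and 0 lower (22.2%, against 6.27% of all tested genes). However, 12 of the 18 had a negative fold change, with a median of -0.07. The rises were Lcn2 and Nfkbia, both also GR targets, the interleukin receptor Il1r1 and the kinase Irak2. Il1r1 was not called without Basal 1 or without Basal 14, and Irak2 was not called without Basal 27.

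Several of the largest rises belonged to none of these pathways. Chrm5, a muscarinic acetylcholine receptor (chr2:112479171-112480769), was at 5.01, 4.76, 6.04, 6.23 and 6.96 CPM in Cort libraries, against 1.33, 1.48, 1.57 and 1.88 CPM in Basal libraries (log2 fold change 1.88 ± 0.28, adjusted p = 5.72e-05). Mlph, which links secretory vesicles to myosin, was at 3.84, 4.07, 3.61, 4.94 and 3.84 CPM in Cort libraries, against 1.07, 1.37, 1.22 and 1.21 CPM in Basal libraries (1.73 ± 0.19, adjusted p = 9.85e-07). Each group was tight for Mlph and the gap between them wide. Atp2c2, a calcium pump of the secretory pathway, Tmem52, a transmembrane protein, and Card14, a signalling scaffold, rose by 1.88 ± 0.35, 1.86 ± 0.33 and 1.91 ± 0.40 (adjusted p = 0.000798, 0.000422 and 0.00275). The most abundant rises were Tsc22d1, Ahcyl2, Syt13, Ehd3, Mat2a and Klf9. Tsc22d1, a relative of Tsc22d3, averaged 536 ± 36.3 CPM in Cort libraries and 425 ± 19.6 CPM in Basal libraries (0.34 ± 0.07, adjusted p = 0.00355). Mat2a, which makes the methyl donor of the cell, averaged 284 ± 29.2 CPM in Cort libraries and 199 ± 26.8 CPM in Basal libraries (0.51 ± 0.10, adjusted p = 0.00209). Gm45187 also rose, but it is annotated as antisense and the strand setting of the counting is not given, so its level is uncertain.

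Among the largest falls, Cd180, a relative of the Toll-like receptors found on immune cells, was at 0.614, 0.847, 0.619, 0.445 and 0.767 CPM in Cort libraries, against 3.84, 1.86, 3.71 and 3.28 CPM in Basal libraries (log2 fold change -2.26 ± 0.28, adjusted p = 6.87e-06). Insc (chr7:114743694-114850383), an adaptor that orients the mitotic spindle, was at 2.2, 1.16, 1.08, 1.38 and 1.07 CPM in Cort libraries, against 5.89, 5.15, 5.43 and 5.4 CPM in Basal libraries (-1.98 ± 0.24, adjusted p = 5.78e-06). Erbb3 (chr10:128567523-128589652), a neuregulin receptor, was at 5.58, 2.8, 3.72, 3.61 and 4.81 CPM in Cort libraries, against 16.6, 10.7, 14.9 and 17.8 CPM in Basal libraries (-1.87 ± 0.23, adjusted p = 6.31e-06). All Cort libraries lay below all Basal libraries for each of the 3.

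Wnt9a, a secreted Wnt ligand, averaged 3.14 ± 0.986 CPM in Cort libraries and 11.9 ± 5.51 CPM in Basal libraries (-1.92 ± 0.29, adjusted p = 7.43e-05), with Basal 9 at 4.55 CPM, next to the highest Cort library at 4.29 CPM. Among 24 Wnt pathway genes 3 were called lower, Wnt9a, Wnt7a and Nkd1, and 2 higher, the receptor Fzd2 and the ligand Wnt3 (20.8%, against 6.27% of all tested genes). Cd248, a pericyte and fibroblast surface protein, fell by 1.67 on the log2 scale (SE 0.31, adjusted p = 0.000927). Gpr101, an orphan receptor, was at 2.86, 2.7, 2.73, 3.85 and 2.61 CPM in Cort libraries, against 7.73, 10.1, 10.2 and 7.96 CPM in Basal libraries (-1.61 ± 0.33, adjusted p = 0.00273), and was not called with the thalamic and neocortical covariates (adjusted p = 0.105). The most abundant falls were Tub, Nfix, Srcin1, St6galnac5, Cttnbp2 and Car2. Tub averaged 246 ± 11.1 CPM in Cort libraries and 315 ± 15.8 CPM in Basal libraries (-0.36 ± 0.07, adjusted p = 0.00258). Car2, a carbonic anhydrase of oligodendrocytes and choroid plexus, averaged 136 ± 18.4 CPM in Cort libraries and 205 ± 19.6 CPM in Basal libraries (-0.59 ± 0.13, adjusted p = 0.00558).

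Oligodendrocyte genes were lower in Cort libraries in part. Of 24 tested markers 11 (45.8%) were called lower and 0 higher, against 3.43% and 2.84% of all tested genes. All 24 had a negative fold change, and their median was -0.41, against 0.01 over all tested genes. In whole-tissue libraries like these, fewer cells of a type and less RNA per cell cannot be told apart. Opalin, a myelin membrane protein (chr19:41061710-41077113), was at 17.2, 13.7, 15.6, 19.2 and 17.5 CPM in Cort libraries, against 40.7, 28.2, 33.7 and 35.8 CPM in Basal libraries (log2 fold change -1.05 ± 0.15, adjusted p = 4.2e-05). The transcription factor Sox10 fell by 1.06 (SE 0.21, adjusted p = 0.00231), and Gpr37, a receptor of maturing oligodendrocytes, fell by 0.59 (SE 0.11, adjusted p = 0.000722). Mbp, an abundant gene of compact myelin, was not called. It was at 2592, 1498, 1540, 1648 and 1201 CPM in Cort libraries, against 2594, 1982, 2290 and 1661 CPM in Basal libraries (-0.33 ± 0.23, adjusted p = 0.453). The mean oligodendrocyte level ran from -0.577 to 0.194 in Cort libraries and from 0.189 to 0.534 in Basal libraries, with Cort 4 the highest Cort library. The count was 10 without Cort 4 and Cort 36, 13 with the thalamic and neocortical covariates, 6 without Basal 1 and 7 without Basal 14. Of 13 markers of oligodendrocyte precursors 2 were called lower and 0 higher, and 0 were called without Basal 14, without Cort 36 or with the thalamic and neocortical covariates.

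Of 23 endothelial markers 5 were called lower and 2 higher (30.4%, against 6.27% of all tested genes), with a median of -0.51. Kdr (chr5:75932827-75978458), the main VEGF receptor, was at 3.94, 2.17, 2.37, 2.72 and 1.53 CPM in Cort libraries, against 12.6, 4.82, 8.99 and 10.5 CPM in Basal libraries (-1.86 ± 0.32, adjusted p = 0.000415). The tight junction gene Cldn5 was at 7.57, 3.7, 6.04, 4.05 and 2.56 CPM in Cort libraries, against 15.9, 6.91, 15.6 and 15.5 CPM in Basal libraries (-1.50 ± 0.34, adjusted p = 0.00676). Basal 9 lay within the Cort range for Cldn5, whose call was lost with the thalamic and neocortical covariates (adjusted p = 0.0709).

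Transporters of the blood-brain barrier moved in different directions. Mfsd2a, the lipid transporter of barrier endothelium and also a GR target, was at 38, 31.3, 31.6, 33 and 24.5 CPM in Cort libraries, against 12.8, 17.1, 11.4 and 12.2 CPM in Basal libraries (1.24 ± 0.16, adjusted p = 8.93e-06). Slc2a1, the glucose transporter, averaged 120 ± 36.5 CPM in Cort libraries and 62.6 ± 4.93 CPM in Basal libraries (0.94 ± 0.25, adjusted p = 0.0207), a call that 7 of 19 alternatives did not make. Slc16a1, which carries lactate, fell by 0.61 (SE 0.12, adjusted p = 0.00213). Of the mural cell markers, Pdgfrb, the receptor that keeps pericytes on vessels, was at 10.4, 7.83, 8.0, 8.45 and 6.6 CPM in Cort libraries, against 17.5, 13.3, 16.4 and 17.5 CPM in Basal libraries (-0.97 ± 0.14, adjusted p = 3.93e-05). With Itga8 (-0.73 ± 0.14, adjusted p = 0.00115) 2 of 16 (12.5%) were called lower and 0 higher, against 3.43% and 2.84% of all tested genes. The endothelial level ran from -0.621 in Cort 36 to 0.434 in Cort 4, and from 0.158 to 0.658 in Basal libraries. The 5 endothelial falls were 4 without Cort 4 and Cort 36, 3 without Basal 1, Basal 14, Cort 30 or Cort 36 alone, and 2 with the thalamic and neocortical covariates.

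Among 18 microglial markers 3 (16.7%) were called lower and 0 higher, against 3.43% and 2.84% of all tested genes. Their median log2 fold change was -0.12, with 7 members positive and 11 negative. This median was -0.02 with the thalamic and neocortical covariates and -0.04 without Cort 36. Cx3cr1, the receptor by which microglia sense the neuronal ligand fractalkine, was at 27, 28.7, 31.6, 27.2 and 26.1 CPM in Cort libraries, against 54.9, 48.2, 48.7 and 57.8 CPM in Basal libraries (-0.90 ± 0.13, adjusted p = 5.63e-05). The purine receptor P2ry12 and the transcription factor Sall1 fell by 0.86 and 0.69 (SE 0.21 and 0.16, adjusted p = 0.0123 and 0.00712), and with the thalamic and neocortical covariates only Cx3cr1 was called. The microglial level was -0.463 in Cort 36 and -0.0747 to -0.0366 in the other Cort libraries, against 0.0426 to 0.115 in Basal libraries. Astrocyte markers gave 2 rises, Gjb6, a gap junction protein (73.7 ± 12.8 CPM in Cort libraries and 35.4 ± 5.46 CPM in Basal libraries, 1.06 ± 0.16, adjusted p = 0.000103), and Etnppl, a lipid-metabolising enzyme, with 1 fall, the transcription factor Sox9 (-0.87 ± 0.20, adjusted p = 0.00693), among 22.

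**Figure D3:**
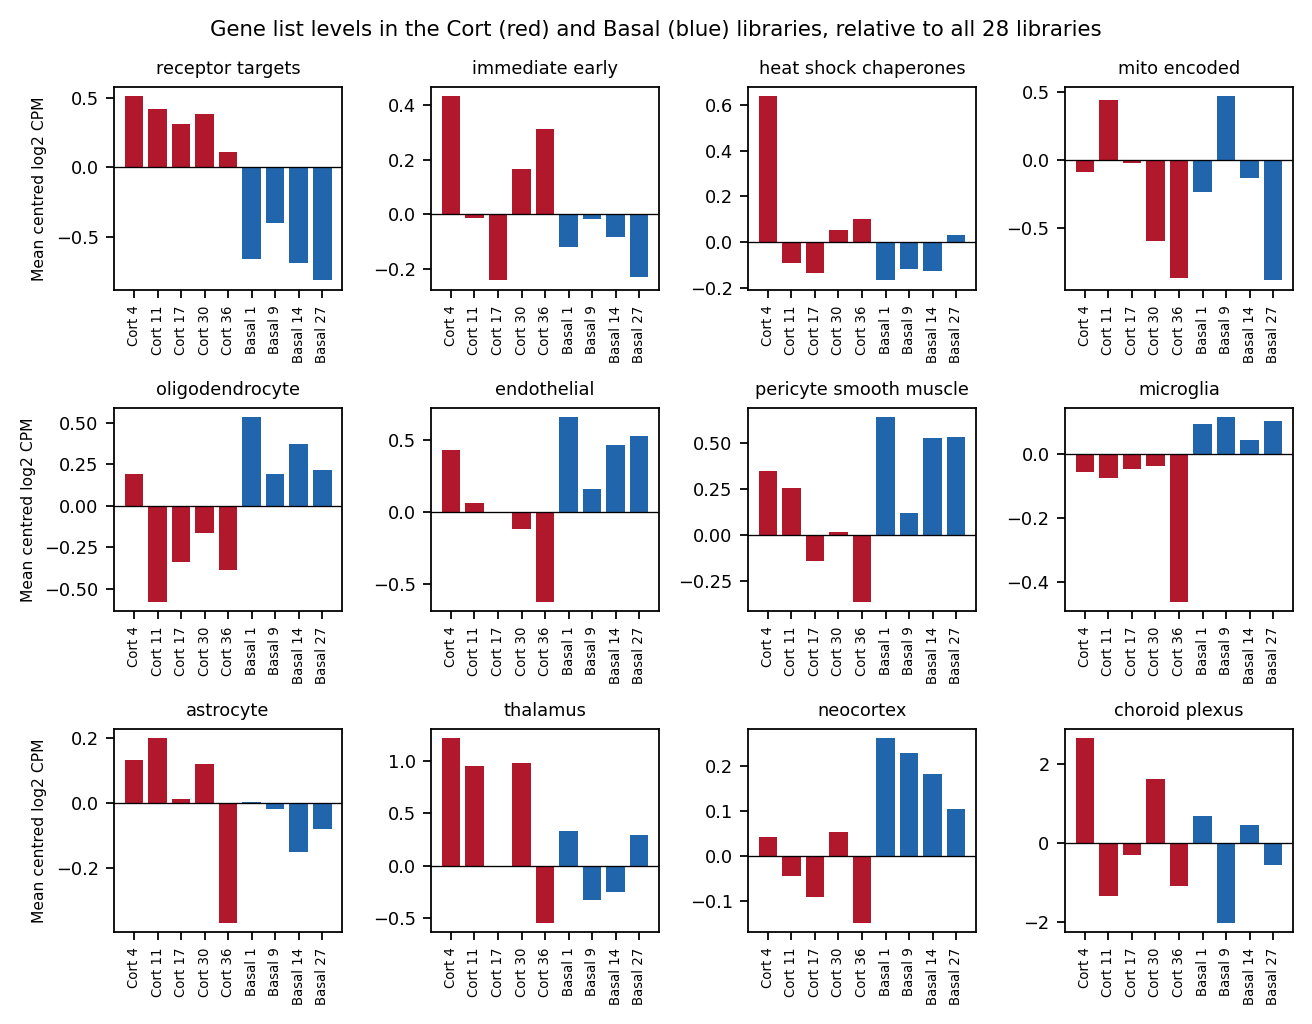
Bars give the mean centred log2 CPM of 12 gene lists in each Cort library (red, left) and each Basal library (blue, right), relative to all 28 libraries. GR targets, microglial and neocortical markers separate the groups without overlap, whereas Cort 4 is high in heat shock chaperones (0.637) and Cort 36 is low in microglial markers (-0.463).

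Of 41 tested immediate early genes, 7 were called higher and 1 lower, against 2.84% and 3.43% of all tested genes. Fos was at 17.2, 3.97, 4.85, 10.5 and 12.3 CPM in Cort libraries, against 5.12, 9.64, 3.66 and 4.73 CPM in Basal libraries (log2 fold change 0.76 ± 0.41, adjusted p = 0.31). Arc, a synaptic activity gene, was at 290, 88.1, 61.0, 130 and 107 CPM in Cort libraries, against 99, 81.3, 88.8 and 98.7 CPM in Basal libraries (0.56 ± 0.34, adjusted p = 0.386). The Cort libraries spread widely for both, with Cort 4 the highest, and neither Npas4 (adjusted p = 0.464) nor Egr1 (adjusted p = 0.582) was called. Of the rises, the growth arrest gene Gadd45g had the smallest p, at 15.6, 18.7, 15.3, 18.8 and 14.4 CPM in Cort libraries, against 6.96, 10.4, 8.28 and 7.48 CPM in Basal libraries (1 ± 0.18, adjusted p = 0.00068). Tiparp, which is also induced through the aryl hydrocarbon receptor, rose by 0.64 ± 0.13 (adjusted p = 0.0022). The others were Dusp5, Trib1, Maff, Csrnp1 and Nptx2, and the fall was Nr4a3, a nuclear receptor (-0.52 ± 0.15, adjusted p = 0.0344). The rises numbered 2 without Cort 4 and Cort 36, 2 with the thalamic and neocortical covariates, 3 without Basal 1, and 4 without Basal 14. Bdnf, the neurotrophin of activity-dependent plasticity, was at 46.4, 50.6, 54.7, 51.8 and 67.4 CPM in Cort libraries, against 74.0, 60.9, 70.8 and 65.3 CPM in Basal libraries, and was not called (-0.32 ± 0.13, adjusted p = 0.14).

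Of 48 potassium channel genes 6 (12.5%) were called lower and 0 higher in Cort libraries, against 3.43% and 2.84% of all tested genes, with a median of -0.14. Kcna4, a channel of the A-type current, was at 25.3, 27.1, 27.4, 22.0 and 30.2 CPM in Cort libraries, against 52.4, 29, 54.4 and 48.4 CPM in Basal libraries (-0.80 ± 0.13, adjusted p = 0.00026), with Basal 9 within the Cort range. The number of falls was 3 without Basal 1, 3 without Basal 14, 3 with the thalamic and neocortical covariates, 8 without Basal 9 and 8 with DESeq2, and it ran from 3 to 10 over the 19 alternatives. Among 29 glutamate receptor genes 1 was called lower and 0 higher (3.45%, against 6.27% of all tested genes). It was the AMPA receptor partner Cacng3 (-0.47 ± 0.11, adjusted p = 0.00587), which did not pass with the thalamic and neocortical covariates (adjusted p = 0.0965). Among 21 GABA receptor genes 1 was called lower and 0 higher by edgeR (4.76%). In that list 0 were called without Basal 14 or with these covariates, and 3 were lower with DESeq2. The neuropeptide Y receptor Npy2r fell by 0.69 (SE 0.15, adjusted p = 0.00412).

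Of 20 genes of hippocampal neurogenesis 4 were called lower, with Sox2, Tbr1 and Hes5 among them, and 1 higher, Dpysl5 (25%, against 6.27% of all tested genes). The falls numbered 2 with the thalamic and neocortical covariates, with which Tbr1 and Hes5 were not called (adjusted p = 0.0648 and 0.184). Tbr1 is also a neocortical marker, so its own level is part of the covariate. Sox2, a factor of neural stem cells and astrocytes, was at 15.2, 12.6, 10.8, 10.6 and 8.85 CPM in Cort libraries, against 31.4, 19.8, 29.2 and 17.7 CPM in Basal libraries (-1.08 ± 0.18, adjusted p = 0.000215). Dpysl5, a cytoskeletal regulator of growing axons and dendrites, was at 58.7, 63.0, 52.5, 59.9 and 67.8 CPM in Cort libraries, against 31.2, 39.1, 29.8 and 30 CPM in Basal libraries (0.89 ± 0.11, adjusted p = 4.99e-06). Of the dentate gyrus markers, Pdzd2 and Ahcyl2, expressed in dentate granule cells, rose by 0.92 ± 0.15 and 0.47 ± 0.08 (adjusted p = 0.000239 and 0.000177), whereas the cadherin Cdh9 of the same list fell by 0.64 (SE 0.09, adjusted p = 3.72e-05).

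Of 21 VEGF and vessel growth genes 4 (19%) were called lower and 0 higher, against 3.43% and 2.84% of all tested genes. Beside Kdr these were the receptor Notch1, the ligand Vegfc and the angiopoietin receptor Tek, which fell by 0.53, 0.97 and 1.23 (SE 0.12, 0.20 and 0.33, adjusted p = 0.00558, 0.0022 and 0.02). Kdr and Tek are also among the endothelial markers counted above. Tek lost its call in 7 of 19 alternatives, over which the falls of this list ran from 3 to 6. Of 19 growth arrest genes 4 were called higher and 0 lower, with Cdkn1a and Gadd45g among them and Mdm2, the ubiquitin ligase of p53, close to the threshold (adjusted p = 0.0483). Among 23 cell cycle genes the centromere histone Cenpa rose, at 4.86 ± 0.905 CPM in Cort libraries and 2.37 ± 0.841 CPM in Basal libraries (1.04 ± 0.21, adjusted p = 0.00158), while cyclin Ccnd1 fell by 0.49 (SE 0.12, adjusted p = 0.00833). Of 22 circadian genes 1 was called (4.55%, against 6.27% of all tested genes), the clock repressor Ciart, higher by 0.76 ± 0.18 (adjusted p = 0.00859).

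Of 31 neuropeptide and peptide receptor genes 3 were called lower and 1 higher (12.9%, against 6.27% of all tested genes). The falls numbered 1 without Basal 14, 2 without Basal 1, 2 without Cort 4 and Cort 36, 5 without Basal 9 and 6 with DESeq2, and the rise, Npy5r, was lost in 11 of 19 alternatives. The cholecystokinin receptor Cckbr and the vasoactive intestinal peptide receptor Vipr1 fell by 0.86 and 0.37 (SE 0.22 and 0.10, adjusted p = 0.0159 and 0.0188), and both lost their call with the thalamic and neocortical covariates (adjusted p = 0.0814 and 0.185). Of 13 neurotrophin genes 1 was called (7.69%, against 6.27% of all tested genes). It was Gfra2, a receptor of the GDNF family, higher by 0.50 ± 0.10 (adjusted p = 0.00229). CA1 markers gave 3 falls and 0 rises among 13 (23.1%, against 6.27% of all tested genes). Their median log2 fold change was -0.03, with 6 members positive and 7 negative. Man1a, a mannosidase, was at 57.7 ± 3.23 CPM in Cort libraries and 98.7 ± 11.7 CPM in Basal libraries (-0.78 ± 0.15, adjusted p = 0.000927). Another of the falls, Ndst3, was not called with the thalamic and neocortical covariates or without Cort 4 and Cort 36. Neocortical markers gave 3 falls and 0 rises among 20 (15%, against 6.27% of all tested genes), among them the transcription factor Fezf2 (-0.94 ± 0.20, adjusted p = 0.00308). Fezf2 was not called with the thalamic and neocortical covariates (adjusted p = 0.0873). As a member of the neocortical list, Fezf2 is itself part of that covariate, so this loss cannot tell dissection from a change in Fezf2. Among 12 ependymal markers 1 was called (8.33%, against 6.27% of all tested genes). It was the ciliary gene Tekt4, at 1.18 ± 0.654 CPM in Cort libraries and 0.306 ± 0.142 CPM in Basal libraries (1.92 ± 0.42, adjusted p = 0.00383). Other large falls were the secreted protease Adamts16, Nipal4 and Gm266, by 1.61, 1.44 and 1.59 (SE 0.26, 0.27 and 0.26, adjusted p = 0.000133, 0.000954 and 0.00022), and Gm19439 rose by 1.97 ± 0.27 (adjusted p = 2.9e-05).

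**Figure D4:**
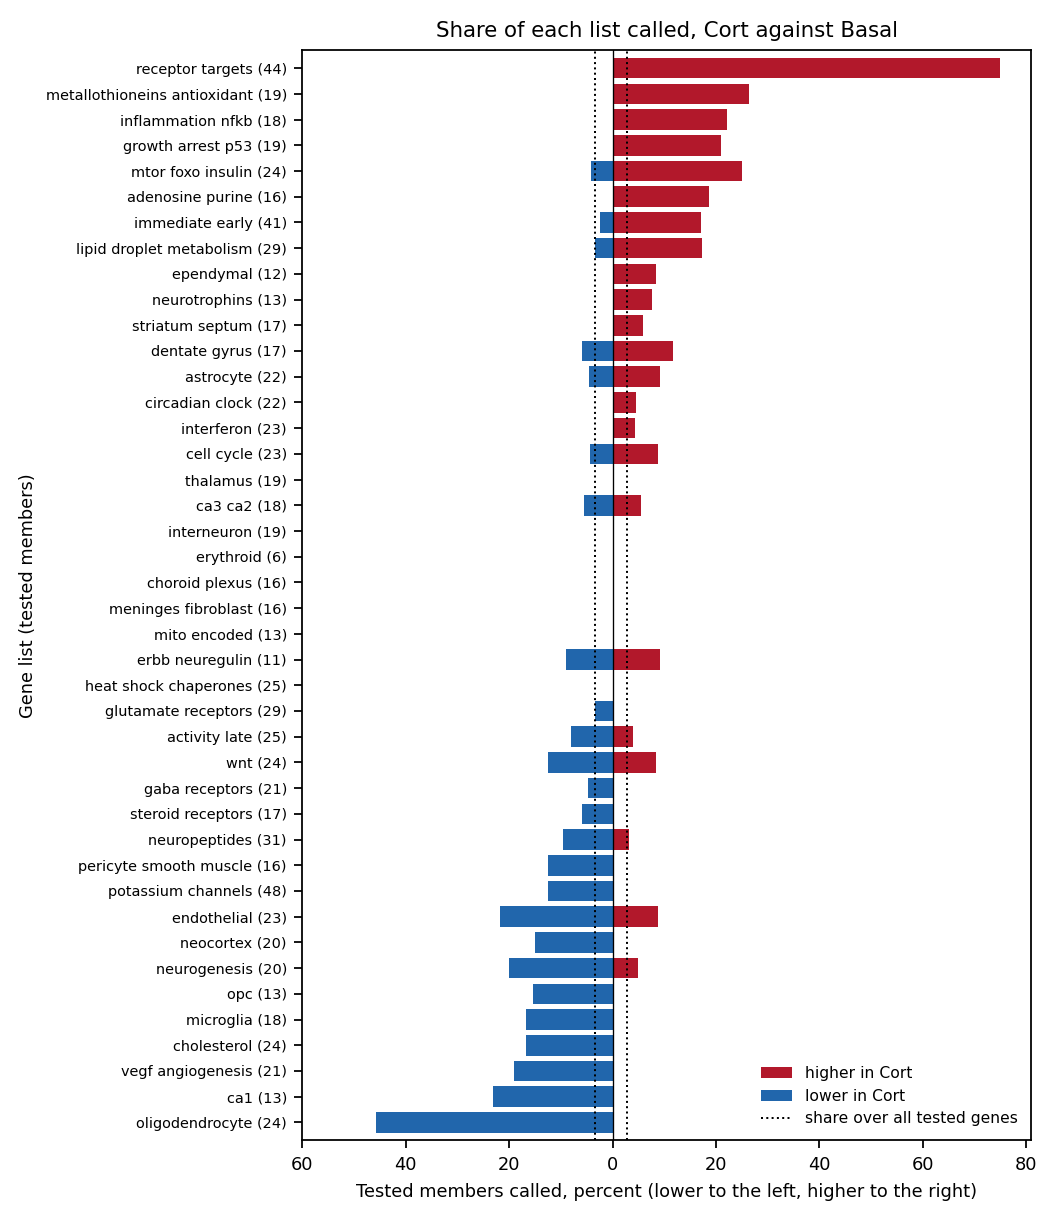
Bars give the percent of each list's tested members (number in brackets) called higher (red, right) or lower (blue, left) in Cort libraries, with dotted lines at the shares over all tested genes, 2.84% and 3.43%. GR targets reach furthest to the right (33 of 44 higher) and oligodendrocyte markers furthest to the left (11 of 24 lower).

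The same Cort libraries were then set against the other conditioned groups, so the comparisons share these 5 libraries and are given side by side. Against Vehicle 1 gene was called, 0.00598% of those tested, and 1947 (11.6%) had an unadjusted p under 0.05. The called gene was Rbm24, an RNA-binding protein of splicing, at 28.3, 23.3, 23.1, 26.4 and 26.2 CPM in Cort libraries and 16.1 ± 3.2 CPM in Vehicle libraries (log2 fold change 0.66 ± 0.11, adjusted p = 0.0159), and it was not called against Basal (adjusted p = 0.421). The number of genes called against Vehicle depended on single libraries, as it was 170 without Vehicle 23, 40 without Vehicle 3 and 0 without Cort 4, Cort 30 or Vehicle 29. The Vehicle libraries also differed in tissue markers. In Vehicle 3, 16, 23 and 29 the thalamic level was 1.27, 2.14, -0.467 and -0.362, and the neocortical level -0.0379, 0.774, -0.213 and 0.419. Vehicle 16 was low in CA1 markers (-0.815) and Vehicle 29 in dentate gyrus markers (-0.489). Whether the small number of calls comes from this spread was not tested. The median log2 fold change of the 44 GR targets was 0.10 against Vehicle, 0.36 against RU486 and 0.89 against Basal.

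Against RU486, 9 genes were called, 0.0538% of those tested, and 894 (5.34%) had an unadjusted p under 0.05. Of the 9, 8 were higher in Cort libraries (0.0478% of those tested), namely Fkbp5, Cdkn1a, Pnpla2, Zbtb16, Aff1, Bcl2l1, Nrros and Dzip1l, and the clock output factor Dbp was lower. Cdkn1a averaged 54.8 ± 15.2 CPM in Cort libraries, against 15.5 ± 4.46 CPM in RU486 libraries (1.83 ± 0.28, adjusted p = 0.00557), 44.4 ± 5.72 CPM in Vehicle libraries (0.30 ± 0.28, adjusted p = 0.694) and 7.43 ± 2.88 CPM in Basal libraries. Fkbp5 averaged 167 ± 9.89 CPM in Cort libraries, against 114 ± 8.28 CPM in RU486 libraries (0.56 ± 0.09, adjusted p = 0.00557), 130 ± 13 CPM in Vehicle libraries (0.36 ± 0.10, adjusted p = 0.156) and 67.5 ± 9.53 CPM in Basal libraries. Nrros, a microglial regulator of reactive oxygen, averaged 12.4 ± 2.59 CPM in Cort libraries, against 6.86 ± 1.35 CPM in RU486 libraries (0.86 ± 0.16, adjusted p = 0.0275) and 5.07 ± 0.663 CPM in Basal libraries (1.29 ± 0.17, adjusted p = 1.71e-05). Dbp averaged 23.9 ± 5.54 CPM in Cort libraries, against 39.8 ± 6.82 CPM in RU486 libraries (-0.73 ± 0.14, adjusted p = 0.0385), and was at 24.3 ± 4.89 CPM in Basal libraries. The falls named above gave no called gene in either comparison. Erbb3 averaged 4.1 ± 1.09 CPM in Cort libraries, 4.0 ± 0.616 CPM in Vehicle libraries, 5.31 ± 1.44 CPM in RU486 libraries and 15 ± 3.08 CPM in Basal libraries. Hif3a stood at 13 ± 2.59 CPM in Cort libraries, 13.6 ± 1.92 CPM in Vehicle libraries, 8.7 ± 1.87 CPM in RU486 libraries and 2.52 ± 1.85 CPM in Basal libraries. Fewer genes were called against RU486 in some fits, with 3 without Cort 4, Cort 30, RU486 12, RU486 25 or RU486 32.

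**Figure D5:**
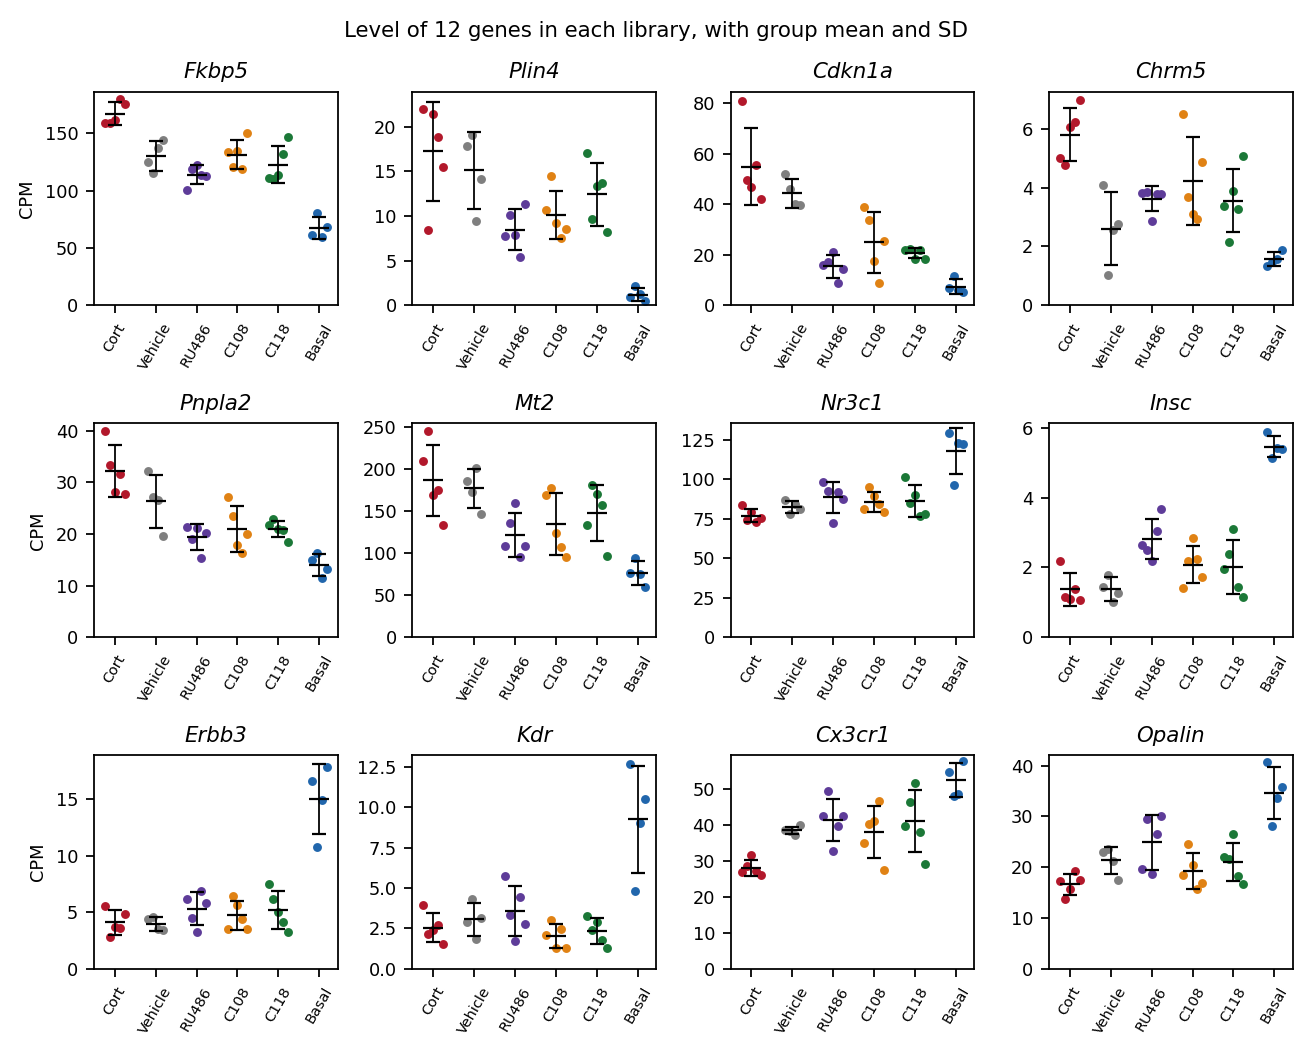
Points give the CPM of 12 genes in each library of the 6 groups, with the group mean and SD in black and the y axis from 0. Chrm5 has its highest group mean in the Cort libraries (4.76 to 6.96 CPM), with 1 C108 library at 6.51 CPM, Cdkn1a lies near the Cort level in Vehicle libraries and lower in RU486 libraries, and Erbb3 is high in the Basal libraries alone among these groups.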

How the data were processed

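RNA of dorsal hippocampus was measured in 28 stranded libraries, per the labels' protocols, of which 5 Cort and 4 Basal libraries are compared here. The authors deposited raw counts per Ensembl gene, made with HTSeq 0.6.1 on mm10, per the submitters' processing notes, which also name FastQC and MultiQC. As to aligner, annotation release and strand setting of counting, each was not given in the sources used here. There are 50686 genes in the deposited table. Its 5 summary rows, which held 13.8 to 18.2% of all counts in Cort libraries and 14.1 to 19.7% in Basal libraries, were left out. Pairs of libraries within a group had a chi-square of at least 5.95 per degree of freedom, so no library was a copy of another.

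The filterByExpr function of edgeR 4.0.16 (minimum count 10, minimum total 15) left 16735 genes with at least 99.9% of the gene counts. Library sizes were scaled by the trimmed mean of M values, CPM rest on these, and a prior count of 2 was added for log2 CPM. A robust quasi-likelihood fit of all 28 libraries (22 residual degrees of freedom, R 4.3.3) gave Cort against Basal, Vehicle and RU486, two-sided, with Benjamini-Hochberg adjustment over all genes. Standard errors are the log2 fold change over the square root of F. The common biological coefficient of variation was 0.133, so for abundant genes the spread between libraries and not depth limits precision. The scripts were tested on simulated data.

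Named genes were the 12 largest rises and 12 largest falls called in every fit without 1 Cort or Basal library, at a mean level of 1 CPM or more and with groups that do not overlap. Added to them were the 6 most abundant such rises and falls, up to 4 members per list by smallest p, and Ttr, Bdnf, Fos, Arc, Egr1, Npas4, Per1, Sgk1, Tsc22d3, Fkbp5, Nr3c2 and Nr3c1. Genes given beyond this rule, such as further called list members, Slc2a1, Serpina3n and those called against Vehicle or RU486, were chosen after their values were seen. The members, lists and rule were chosen with earlier results of these data known. Gene positions are from GENCODE M21 (mm10) and promoters from RefSeq (GRCm38.p6). Alternatives were DESeq2 1.42.0, limma 3.58.1 with voom, other size factors and filters, marker covariates, only the 2 groups, and libraries left out, of which leaving out Cort 4 and 36 was chosen after seeing the data. Some genes that the rule picks are not reported here.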

Additional observations from a re-analysis of the deposited data

Results flagged for a closer look

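Among 58 genes and 42 list levels, each looked at within Cort and within Basal libraries, 11 of 200 groups held a library far from the others of its group by Dixon's test of the gap over the range, close to the 1 in 20 that chance gives. Basal 9 accounts for 6 of the 11. It was the highest Basal library for Tsc22d3 (63.2 CPM), Sgk1 (130 CPM), Dgat2 (148 CPM) and Dpysl5 (39.1 CPM), which rose in Cort libraries, and the lowest for Cldn5 (6.91 CPM), which fell. Its level of adenosine and purine genes (-0.0597) was the highest of its group. In Basal libraries, Npas4 was highest in Basal 14 (5.84 CPM). Cort 36 had the highest Serpina3n (135 CPM), the lowest microglial level (-0.463) and the highest interneuron level (0.3) of the Cort libraries. Cort 4 had the highest Insc (2.2 CPM) of its group.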

How the results depend on the processing

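No paired analysis was made, since each library carries its own number and no number occurs in more than 1 group. The main fit held no term for the order of these numbers, and an effect of that order was not tested. The 1049 calls of Cort against Basal became 587 with thalamic and neocortical levels as covariates, 684 without Cort 4 and Cort 36, and 595 to 1153 in the fits without 1 library. Cort against Vehicle, with 1 call, gave 85 with DESeq2, 3 with no filter on low counts, 0 with the thalamic and neocortical covariates, 0 with only the compared groups, and 0 to 170 without 1 library. Cort against RU486, with 9 calls, gave 29 with DESeq2, 2 with the thalamic and neocortical covariates, 3 with only the compared groups, and 3 to 9 without 1 library. The cause of these differences was not tested. Over all lists 61 members were called lower, and 40 to 69 in the fits without 1 library. Signs turned for 3 genes, none of them called. Ttr was at -0.14 (log2, adjusted p = 0.842) with the choroid plexus level as a covariate, a level that includes Ttr itself. Without Cort 4 and Cort 36 Npas4 was at -0.0309 (adjusted p = 0.985) and Egr1 at -0.23 (adjusted p = 0.715).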

Other observations

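The genes with the smallest adjusted p outside the lists and the naming rule were chosen here after their values were seen. Cdh10, a classical cadherin that joins neurons, was at 23.8, 25.1, 23.6, 25.9 and 22.8 CPM in Cort libraries, against 51.5, 49.4, 49.6 and 49.0 CPM in Basal libraries (log2 fold change -1.04 ± 0.08, adjusted p = 3.6e-09, edgeR). Both groups were tight, and Basal 9 lay with the other Basal libraries. Kif21b, a kinesin motor of neurons, was at 32.8, 28.2, 31.4, 34 and 37.6 CPM in Cort libraries, against 62.2, 53.3, 60.6 and 65.8 CPM in Basal libraries (-0.88 ± 0.09, adjusted p = 3.33e-07). Lrig1, which lowers growth factor receptor levels and was called in all 19 alternative fits, was at 40.8, 38.3, 35.1, 42.0 and 42.7 CPM in Cort libraries, against 23.6, 24.1, 20.3 and 21.4 CPM in Basal libraries (0.83 ± 0.07, adjusted p = 1.61e-08). Mthfd2, a mitochondrial enzyme of folate metabolism, and Gpt2, a mitochondrial alanine transaminase, rose by 1.27 ± 0.14 and 0.78 ± 0.09 (adjusted p = 2.01e-06 and 2.31e-06).

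Some gene families held called members in 1 direction only. They were picked for this after the values were seen, so their counts carry no test, and 2.84% of all tested genes were called higher and 3.43% lower in Cort libraries. Of 16 tested Sox transcription factor genes 8 were called lower and 0 higher in Cort libraries (Sox1, Sox2, Sox3, Sox6, Sox9, Sox10, Sox12 and Sox21), with a median log2 fold change of -0.58. They include progenitor, astrocyte and oligodendrocyte genes, and 5 of the 8 were called in every fit without 1 library. Of 19 cadherins 5 were called lower and 0 higher (Cdh6, Cdh9, Cdh10, Cdh11 and Cdh20), and of 20 semaphorins, axon guidance ligands, 4 were lower and 0 higher. Called in every fit without 1 library were 4 of these cadherins and 2 of these semaphorins. Of 6 Stat genes, which carry cytokine signals, 4 were called higher and 0 lower, and 3 were called in every fit without 1 library. Stat2 (adjusted p = 0.0405) lost its call in 10 of 19 alternatives. Stat5a was at 4.3, 3.02, 2.48, 4.45 and 3.43 CPM in Cort libraries, against 1.13, 1.81, 2.08 and 1.11 CPM in Basal libraries (1.21 ± 0.24, adjusted p = 0.00168).

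Ttr, the transthyretin gene of choroid plexus, was at 1539, 16, 71.0, 558 and 34.1 CPM in Cort libraries, against 210, 7.78, 233 and 51.0 CPM in Basal libraries, and was not called (1.82 ± 1.58, adjusted p = 0.566). All 16 choroid plexus markers had a positive fold change with a median of 1.25, and 0 were called in either direction by edgeR, DESeq2 or limma-voom, with 0 at an unadjusted p under 0.05 in edgeR.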
